A study of Mus musculus with 6 samples.

Results

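The genes described here are 44 genes of the cell cycle, chosen by name: 17 that act in the commitment to S phase and in DNA replication, and 27 that act in G2 and mitosis. They were followed in the whisker pads, the facial skin that gives rise to the vibrissae, of mouse embryos at E12.5. Of the 44, 40 could be measured (15 replication genes and 25 mitosis genes), out of 12393 genes on the arrays. The replication genes Gins2 and Chaf1a and the mitosis genes Ccnb1 and Cdca8 had no probe set in the annotation used and are not analysed here. Whole pads from 3 wild-type embryos and 3 embryos homozygous for a Trps1 mutation were compared, as total RNA of separate embryos on Affymetrix MOE430A arrays. The labels name neither the allele nor the strain. Trps1 is a zinc finger repressor of transcription, and the series asks for its targets in vibrissae. A signal is the deposited intensity of a gene's brightest probe set. Differences were taken on log2(signal + 16), as mutant less wild-type, and are given with a standard error (SE), and n = 3 per group throughout. Adjusted p-values are two-sided, from limma, with the Benjamini-Hochberg method applied across the 22626 probe sets tested.

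Cells copy their DNA in S phase and divide it in mitosis, and many genes that serve these steps are transcribed mainly in dividing cells. E2F factors, held back by Rb proteins in resting cells, switch on genes for licensing origins, for the MCM helicase and for making deoxynucleotides. A later wave, for cyclins A and B, Cdk1, mitotic kinases, spindle motors and kinetochore proteins, is repressed by the DREAM complex in resting cells and activated by MYB and FOXM1 in G2. In whole-tissue RNA the level of such genes follows the share of cycling cells as well as the RNA per cell, and those cannot be told apart here. Hair placodes and dermal condensates are known for cells that leave the cycle, while the skin around them goes on dividing.

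All arrays had one level before deposit, the trimmed mean signal being 250.1 on each and the median 90.5 to 101.5. The 27 bacterial control probe sets, which should find no mouse RNA, read at most 33.8. Both arrays of replicate 3 had the lowest array weights (0.674 in wild-type and 0.535 in mutant, against 1.04 to 1.53 for the other four), and the ratio of 3′ to 5′ actin signal was 1.35 on mutant replicate 3 and 1.07 to 1.19 elsewhere. Xist read 461.5 and Eif2s3y 11.9 on wild-type replicate 3, against 44.0 to 93.7 and 207.3 to 272.3 on the other 5 arrays, the pattern of 1 female embryo among males. Trps1 itself read 807.6, 1061.4 and 748.1 in wild-type and 1297.3, 1491.9 and 1506.7 in mutant pads, and the log2 difference was 0.72 (SE 0.18, limma adjusted p = 0.677). The labels do not say where its probe set lies relative to the mutation, so this level does not check them. Of the markers of surface epithelium all 10 read above 33.8 on every array, as did 9 of 10 markers of facial mesenchyme.

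Cell cycle genes were present in the pads of both genotypes, and none of them passed the test between genotypes. Of the 40 genes, 39 read above the highest bacterial control on all 6 arrays, and the exception was Tyms. None of the 40 passed limma at an adjusted p under 0.05, nor did any gene on the arrays (0%), and the lowest adjusted p among the 40 was 0.945. At an unadjusted p under 0.05, 1 gene was higher in the mutant (2.70% of all genes were) and 0 were lower (2.34% of all genes). That gene was Tyms. By the methods' t-test at an unadjusted p under 0.05, Tyms was higher (2.82% of all genes were) and 3 genes, Aurka, Aurkb and Cenpa, were lower (2.29% of all genes). The count by limma was 0 without any one of wild-type replicates 1, 2 and 3 and mutant replicates 1 and 2. It was 3 (Tyms, Aurkb and Cenpa) without mutant replicate 3.

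The differences ran from -0.44 to 0.35, and 36 of the 40 were under 0.3 in size. For 26 of the 40, the 95% interval of the difference lay within 1.5-fold either way, against 4796 of all 12393 genes. The sets differ in signal, since 39 of the 40 but 8212 of the 12393 read above the highest bacterial control on every array. These shares were not compared at equal signal. The lowest bound of any interval was -0.92 (Bub1b) and the highest 0.71 (Ttk). The median difference was 0.04 over the 15 replication genes and -0.06 over the 25 mitosis genes, against 0.00 over all genes. The 3 mutant values lay above all 3 wild-type values for 2 of the 40 genes, Tyms and Mcm4 (5.54% of all genes did so). They lay below them for 6 genes, all from the mitosis set (4.83% of all genes): Bub1b, Cenpa, Aurkb, Ccna2, Tpx2 and Aurka. The upward share is near that of all genes, and the downward count of 6 in 40 is above it. Those 6 genes were read on the same 6 arrays and cannot be taken as independent, and no test is given for the count. For each of these 8 genes an exact permutation test gave p = 0.1, the smallest that 3 arrays against 3 allow, and none passed after adjustment.

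**Figure D1:**
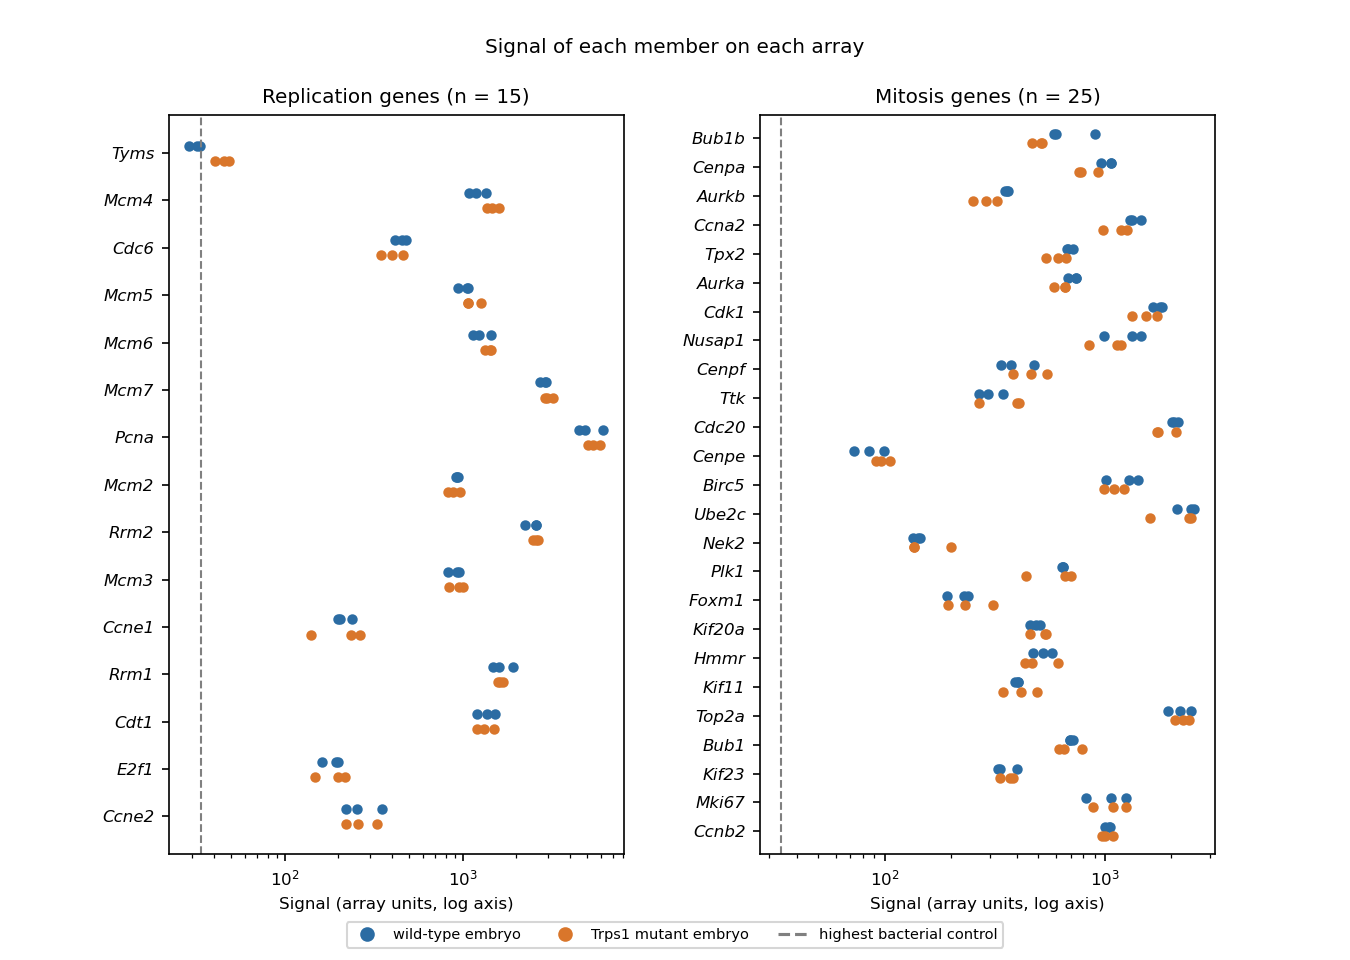
Signal of each of the 40 measured genes on each array (log axis, array units), with 3 wild-type and 3 Trps1 mutant embryos per gene, 15 replication genes on the left and 25 mitosis genes on the right, each panel ordered by the limma p. The dashed line marks the highest bacterial control, 33.8, and only Tyms reads near it.

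Replication genes were examined first, from the regulators of S phase entry to the enzymes that make nucleotides. The transcription factor E2f1, which drives S phase genes, differed by 0.01 (SE 0.19, interval -0.43 to 0.46). Cyclin E1 (Ccne1), a partner of Cdk2 at the start of S phase, read 199.8, 204.5 and 238.4 in wild-type and 263.1, 234.6 and 139.6 in mutant pads. Its mutant values thus spread on both sides of the wild-type ones, and the difference was -0.05 (SE 0.24). Cyclin E2 (Ccne2) differed by -0.02 (SE 0.23), with intervals for both cyclins reaching from about -0.6 to 0.5.

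Origin licensing factors load the MCM helicase onto DNA before S phase. Cdc6, which brings the helicase to the origin, read 416.0, 454.4 and 481.4 in wild-type and 348.7, 400.4 and 461.8 in mutant pads. The groups overlapped, and its difference of -0.16 (SE 0.17) was the lowest of the replication genes. Cdt1, the partner of Cdc6 in loading, differed by -0.03 (SE 0.17), and by -0.05 at its other probe set above the bacterial controls.

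The helicase is a ring of 6 subunits, Mcm2 to Mcm7, all of them measured. The mutant mean was higher for 5 of the 6 and lower for Mcm2, with a median difference of 0.11. Mcm4 read 1357.2, 1085.3 and 1194.5 in wild-type and 1463.1, 1372.4 and 1600.8 in mutant pads, so the groups did not overlap. Its difference was 0.29 (SE 0.16, limma adjusted p = 0.966). At the other probe set of Mcm4 a value of -0.05 (SE 0.17) was found, with overlapping groups, so the gene has no settled direction. Mcm5 read 1054.7, 945.0 and 1070.9 in wild-type and 1260.1, 1064.8 and 1070.1 in mutant pads. The values overlapped, with 1 mutant embryo above the rest, and the difference was 0.14 (SE 0.16). Mcm2 read 914.5, 946.0 and 933.1 in wild-type and 880.7, 970.5 and 829.5 in mutant pads, and the log2 difference was -0.06 (SE 0.15). The mutant embryos lay on both sides of a narrow wild-type range, and the other probe set of Mcm2 gave 0.12 (SE 0.33). Mcm6, Mcm7 and Mcm3 differed by 0.13, 0.09 and 0.04 at their brightest probe sets. The probe sets of Mcm7 ran from -0.30 to 0.09 and those of Mcm3 from -0.16 to 0.18, so that, as for Mcm2, their probe sets had no common direction.

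Pcna, the sliding clamp of the DNA polymerases, read 4501.6, 4868.1 and 6137.3 in wild-type and 5889.1, 5069.7 and 5390.5 in mutant pads, and the log2 difference was 0.09 (SE 0.18). Ribonucleotide reductase, which makes deoxynucleotides, is built from Rrm1 and Rrm2. Rrm1 differed by -0.03 (SE 0.16) at its brightest probe set. At its second one, of similar signal, the 3 mutant values lay below the wild-type values, with a difference of -0.21 (SE 0.16). Rrm2 differed by 0.03 to 0.07 at its 3 probe sets. Thymidylate synthase (Tyms), the enzyme that makes dTMP, read 32.2, 29.1 and 33.3 in wild-type and 48.3, 45.3 and 40.7 in mutant pads. The wild-type values all lay under the highest bacterial control and the mutant values just above it. The difference was 0.35 (SE 0.15, limma adjusted p = 0.945), and the other probe sets of Tyms read under that control on all 6 arrays with differences of -0.21 and 0.15. Tyms was thus the gene of lowest p and also the one measured least well.

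**Figure D2:**
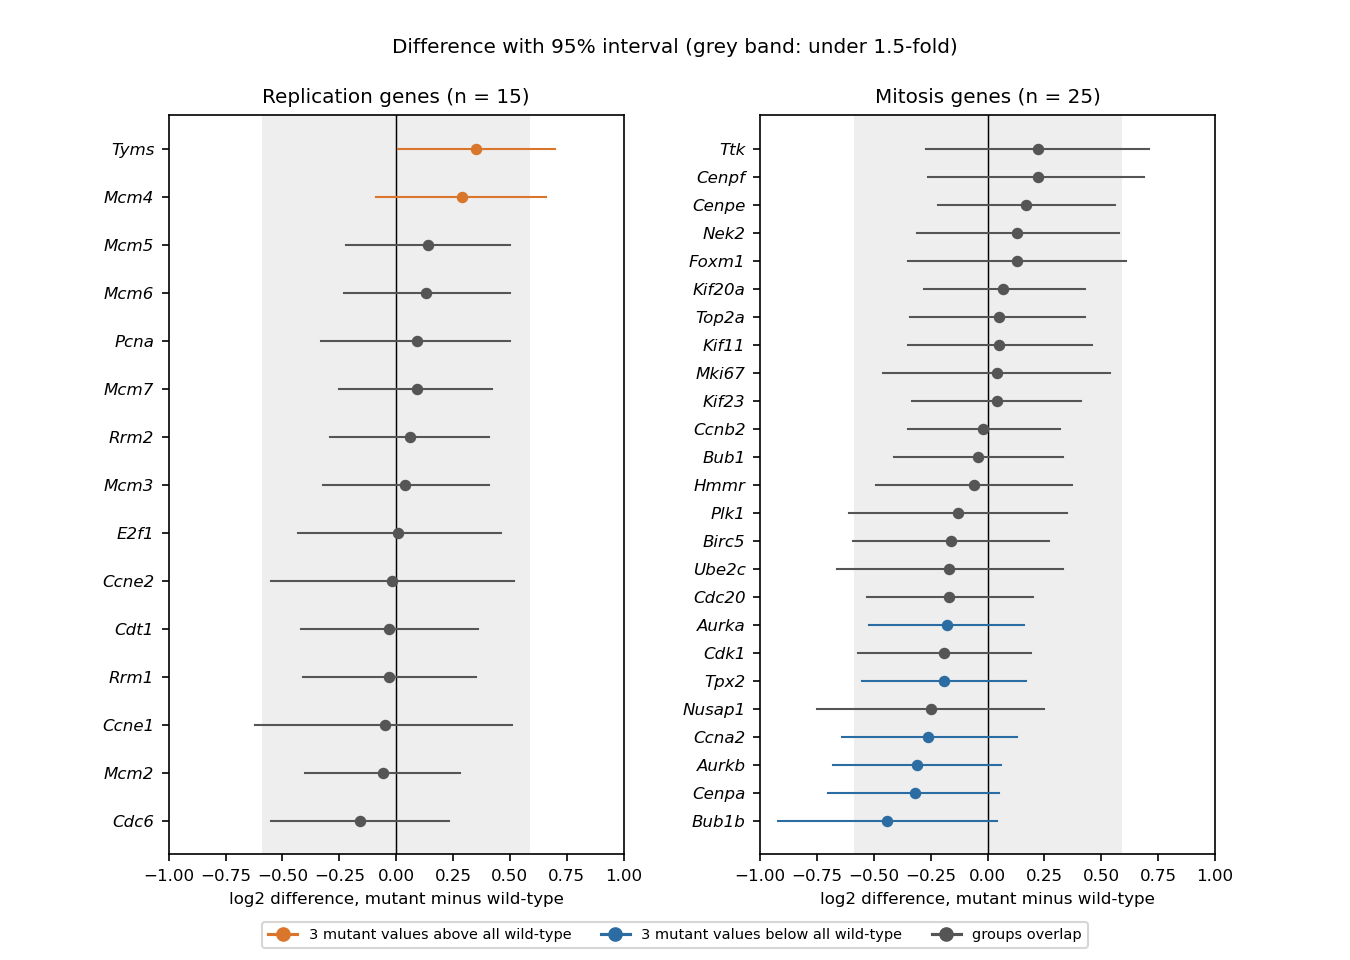
Log2 difference of mutant minus wild-type for each gene (point) with its 95% interval from limma (line), replication genes left and mitosis genes right, ordered by difference, and the grey band marking less than 1.5-fold. Orange and blue points are genes whose 3 mutant values lie above or below all wild-type values, 2 and 6 genes.

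Mitosis genes were taken in the order in which their products act. Cyclin A2 (Ccna2), which works with Cdk2 and Cdk1 from S phase to early mitosis, read 1324.7, 1308.4 and 1460.3 in wild-type and 1265.1, 1183.4 and 983.0 in mutant pads. The groups did not overlap, and the difference was -0.26 (SE 0.16, limma adjusted p = 0.984). At its other probe set the value was -0.15 (SE 0.17), with overlap. Both arrays of replicate 3 weigh on Ccna2, whose difference was -0.15 without mutant replicate 3 and -0.10 without both. Cdk1, the kinase of mitotic entry, differed by -0.19 (SE 0.16) and cyclin B2 (Ccnb2), its partner, by -0.02 (SE 0.14, interval -0.35 to 0.32). The factor Foxm1, which activates mitotic genes, read 192.2, 229.4 and 239.3 in wild-type and 233.0, 309.6 and 193.7 in mutant pads, and the log2 difference was 0.13 (SE 0.20). The groups overlapped, and a second probe set of Foxm1 differed by 0.08. Its next one differed by -0.70 (SE 0.36, groups overlapping), with mutant replicate 3 at 13.7, under the highest bacterial control, so that this value rests partly on background. Its dimmest probe set, under the bacterial control on all arrays, differed by -0.53 (limma adjusted p = 0.828). There the 3 mutant values lay below the wild-type ones, with both groups under that control.

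Among the mitotic kinases, Aurora B (Aurkb), the catalytic subunit of the chromosomal passenger complex, read 365.1, 359.3 and 353.2 in wild-type and 289.6, 251.9 and 322.9 in mutant pads. All mutant embryos lay below a narrow wild-type range. The difference was -0.31 (SE 0.16, limma adjusted p = 0.966), and -0.23 (SE 0.18) at its other probe set, where the groups overlapped. Aurora A (Aurka), the kinase of centrosomes and spindle poles, read 739.9, 739.9 and 683.8 in wild-type and 659.9, 590.8 and 657.9 in mutant pads. The groups did not overlap either, with a difference of -0.18 (SE 0.15, limma adjusted p = 0.993). Its activator Tpx2 read 680.1, 675.5 and 719.7 in wild-type and 539.1, 610.4 and 665.3 in mutant pads. The gap between the groups was small, the difference was -0.19 (SE 0.15, limma adjusted p = 0.993), and without mutant replicate 1 it was -0.12. The other probe set of Tpx2 gave -0.03. Survivin (Birc5), which sits with Aurora B in the passenger complex, differed by -0.16 (SE 0.18). Polo-like kinase 1 (Plk1) differed by -0.13 (SE 0.21) and the centrosome kinase Nek2 by 0.13 (SE 0.19), with 1 mutant embryo apart from the other two in each case: 436.9 against 704.2 and 657.0 for Plk1, and 201.3 against 136.1 and 135.9 for Nek2. Both of those values came from mutant replicate 3.

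The spindle checkpoint delays anaphase until chromosomes are attached. BubR1 (Bub1b), one of its core proteins, read 586.1, 602.9 and 907.7 in wild-type and 514.5, 466.8 and 521.3 in mutant pads. Its difference of -0.44 (SE 0.20, limma adjusted p = 0.966) was the lowest of all 40 genes. Wild-type replicate 3 stood far above the other wild-type embryos, and without it the difference was -0.24. The checkpoint kinase Bub1 read 717.9, 696.4 and 698.3 in wild-type and 617.5, 653.4 and 791.9 in mutant pads, and the log2 difference was -0.04 (SE 0.16). Its dimmer probe set differed by 0.45 (SE 0.37), and the groups overlapped at both. Mps1 (Ttk), which starts checkpoint signalling, read 295.6, 343.6 and 268.0 in wild-type and 269.1, 408.5 and 400.7 in mutant pads. With 2 mutant embryos above the wild-type range and 1 inside it, the difference was 0.22 (SE 0.21). Cdc20 and the ubiquitin-conjugating enzyme Ube2c, which act with the anaphase-promoting complex, both differed by -0.17 (SE 0.16 and 0.21). The other probe sets of Cdc20 gave -0.06, at a similar signal, and -0.04.

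Kinetochore, spindle and chromosome genes lay on both sides of 0. Cenpa, the histone H3 variant that marks centromeres, read 1072.7, 1069.2 and 958.8 in wild-type and 763.5, 776.7 and 933.0 in mutant pads. The groups did not overlap, with mutant replicate 3 close to the wild-type range, and the difference was -0.32 (SE 0.16, limma adjusted p = 0.966). The kinetochore protein Cenpf read 375.0, 338.4 and 475.2 in wild-type and 381.5, 462.3 and 548.3 in mutant pads, and the log2 difference was 0.22 (SE 0.20), against -0.02 at the dimmer probe set. The kinetochore motor Cenpe read 99.7, 85.3 and 72.7 in wild-type and 96.1, 91.3 and 106.4 in mutant pads, and the log2 difference was 0.17 (SE 0.17). For both genes the groups overlapped. The spindle motors Kif11 and Kif23 differed by 0.05 and 0.04 (at a second probe set of Kif11, by 0.21 with groups that did not overlap), and Kif20a, a motor of cytokinesis, by 0.07. Hmmr, a spindle protein, gave -0.06 at the brightest of its probe sets, and the 3 dimmer ones ran from -0.40 to -0.03, in 1 of which (-0.26) the 3 mutant values lay below the wild-type ones. The microtubule-bundling protein Nusap1 differed by -0.25 (SE 0.21), and at its other, dim probe set (-0.16) the 3 mutant values lay below the wild-type values. The proliferation antigen Mki67 read 1064.6, 825.3 and 1252.2 in wild-type and 882.3, 1089.3 and 1244.3 in mutant pads. The groups covered almost the same range, and the difference was 0.04 (SE 0.21, interval -0.46 to 0.54). Topoisomerase II alpha (Top2a), which untangles chromosomes, differed by 0.05 (SE 0.16, interval -0.34 to 0.43).

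The replication genes were then set against the mitosis genes array by array. The median log2 signal of the 15 replication genes minus that of the 25 mitosis genes was 0.62, 0.48 and 0.61 in wild-type and 0.95, 0.79 and 0.69 in mutant pads. These values did not overlap, and the mutant mean was higher by 0.24. Each of these medians is the signal of a single gene, the one in the middle of its set on that array. The value thus rests on few genes, and the medians of the single-gene differences were 0.04 (replication) and -0.06 (mitosis). The size of the 0.24 also rests on which genes and probe sets are used. It was 0.05 with the mean of each gene's probe sets. With probe sets whose names end in _s_at, _x_at or _a_at left out it was 0.11. That setting kept 33 of the 40 genes, so its medians are not over the same genes. In it Top2a stood by a probe set under the highest bacterial control on all 6 arrays. No test is given for it, since the genes were chosen with results of these arrays known. Each gene's signal was also set against its own mean over the 6 arrays. Of the 25 mitosis genes 19, 13 and 17 lay above their mean in wild-type replicates 1, 2 and 3, and 8, 10 and 16 in mutant replicates 1, 2 and 3. The median deviations were -0.09 and -0.08 in mutant replicates 1 and 2, while mutant replicate 3, at 0.04, lay within the wild-type range of 0.01 to 0.06. Single genes did not follow this order, and the lowest deviations of the mitosis genes, -0.48 for Plk1 and Ube2c, were in mutant replicate 3. For the 15 replication genes the medians were -0.03, -0.03 and 0.03 in wild-type and -0.01, 0.03 and 0.07 in mutant pads, which overlapped. The median difference of the replication genes was 0.08 without wild-type replicate 1, 0.06 without mutant replicate 1, 0.02 without mutant replicate 2 and 0.09 without both replicate 3 arrays. That of the mitosis genes was -0.12 when wild-type replicate 2 was left out and -0.04 when mutant replicate 2 was.

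**Figure D3:**
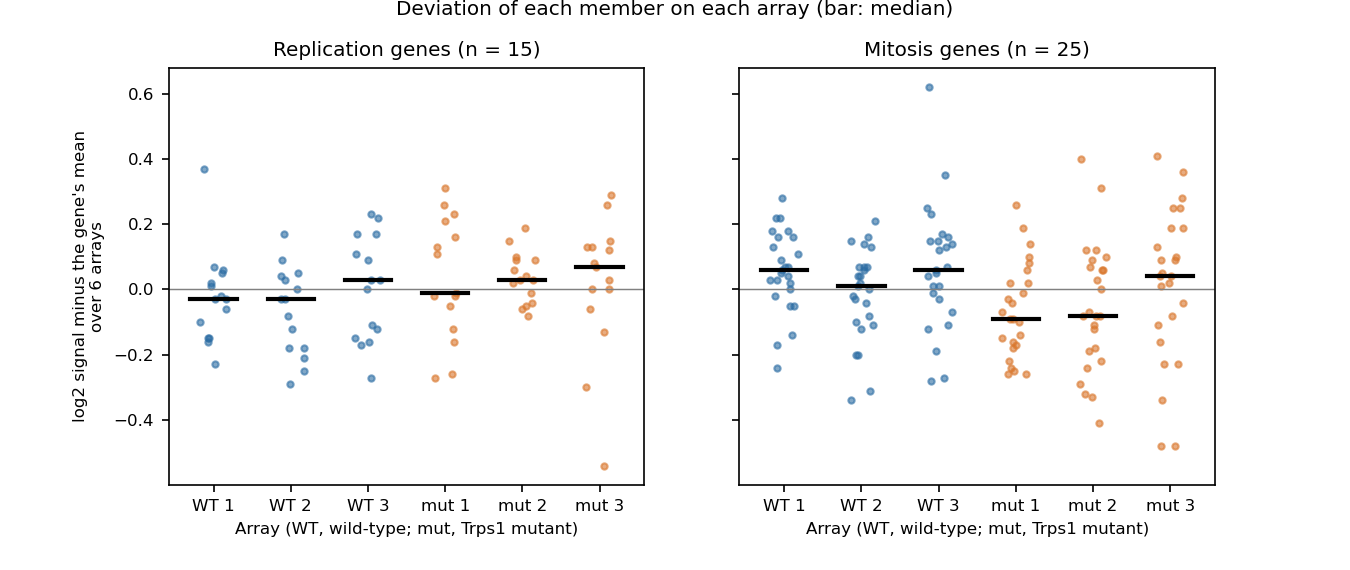
Log2 signal of each gene minus its own mean over the 6 arrays (points), by array, for the 15 replication genes (left) and the 25 mitosis genes (right), with black bars at the median. The medians of the mitosis genes are lowest in mutant replicates 1 and 2 (-0.09 and -0.08) and 0.01 to 0.06 on the other 4 arrays.

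The spread between embryos of 1 group was small in these genes. The within-group SD on the log2 scale had a median of 0.14 over the replication genes and 0.15 over the mitosis genes. Over all 12393 genes it was 0.25, and over the 8212 genes above the highest bacterial control on every array 0.21. The highest SD among the replication genes was 0.33 and among the mitosis genes 0.27. The sets differ in signal, and the spread was not compared at equal signal.

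The promoters of the members were read next, because the control of both waves is known to work through short promoter motifs. Windows from 250 bases before to 50 bases after an annotated start, from RefSeq (GRCm38.p6), were found for 36 of the 44 genes: 14 replication genes with 15 windows and 22 mitosis genes with 22. Not every annotated start was read, and for Cdc6, E2f1 and Aurka the gene's outermost start lies upstream of the whole window. No window was read for Mcm4, Ccne2, Gins2, Aurkb, Ccna2, Tpx2, Foxm1 and Kif20a. E2F letters (TTTCCCGC, TTTCGCGC, TTTGCCGC or TTTGGCGC, either strand) stood in 6 of the 15 replication windows (40%) and in 1 of the 22 mitosis windows (4.55%), that of Cdk1. They stood in 2.26% of all 32851 windows and in 3.38% of those of genes on the arrays. The letters of the cell cycle homology region, CHR, to which DREAM and MYB complexes bind (TTTGAA or TTCGAA, either strand), stood in 17 of 22 mitosis windows (77.3%) and in 2 of 15 replication windows (13.3%), against 19.2% of all windows. CCAAT, the letters bound by NF-Y, stood in 20 of 22 mitosis windows (90.9%) and 10 of 15 replication windows (66.7%), against 37.4% of all. CHR and CCAAT together were found in 17 of 22 mitosis windows and in 7.52% of all windows. The TATA letters TATAAA were found in 0 windows of either set, against 13.6% of all. A match is a description of the letters and not a bound site.

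**Figure D4:**
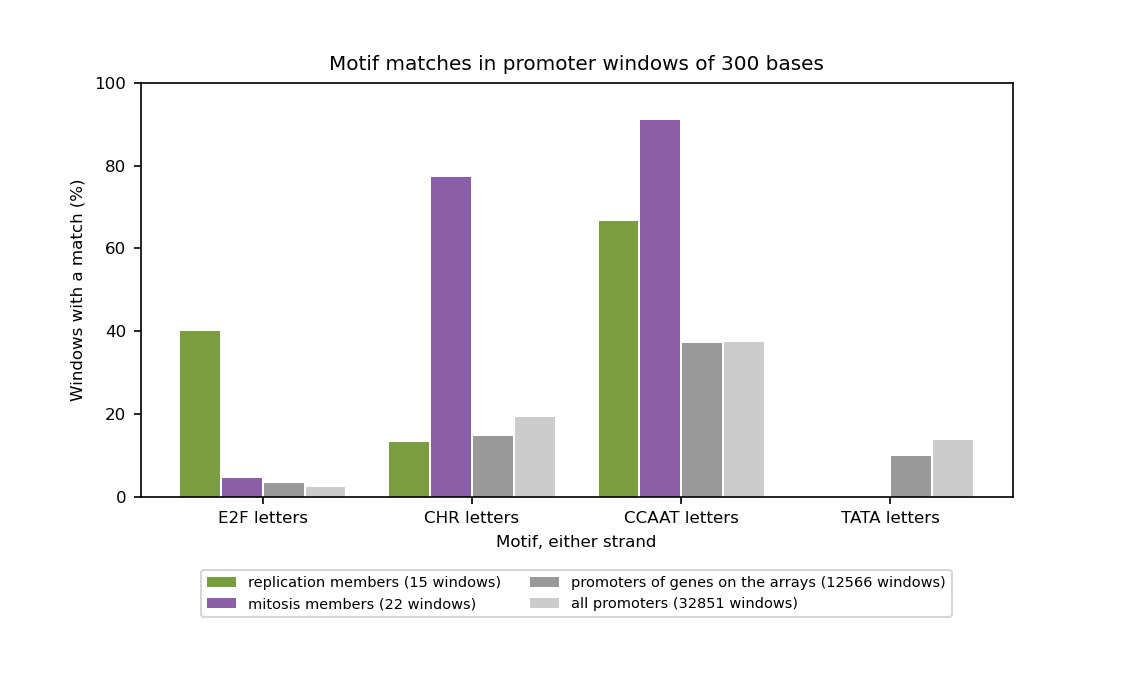
Share of promoter windows (percent, from 0) that hold each motif's letters on either strand, for the replication genes (15 windows), the mitosis genes (22), genes on the arrays (12566) and all genes of the table (32851). E2F letters stand in 40% of replication windows and CHR letters in 77.3% of mitosis windows, above the shares of 2.26% and 19.2% in all windows.

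3 replication windows are shown, those of Tyms, the replication gene of lowest p, and of Cdc6 and Mcm5, the next by p among the windows read that hold E2F letters, which are in capitals. Mcm4 stands before both by p and has no window here. Tyms has none of the E2F letters in its window, so its letters are all in lower case. Tyms lies at chr5:30073576-30073875 (minus strand), Cdc6 at chr11:98907901-98908200 (plus strand) and Mcm5 at chr8:75109259-75109558 (plus strand). In Cdc6 the match starts 138 bases before the start on which its window was set. The outermost RefSeq start of Cdc6, at chr11:98907709, lies upstream of the whole window, so the match lies downstream of that start. In Mcm5 overlapping matches on opposite strands start 153 and 149 bases before the start on which its window was set. The outermost RefSeq start of Mcm5, at chr8:75109468, lies between these matches and that start.
Tyms: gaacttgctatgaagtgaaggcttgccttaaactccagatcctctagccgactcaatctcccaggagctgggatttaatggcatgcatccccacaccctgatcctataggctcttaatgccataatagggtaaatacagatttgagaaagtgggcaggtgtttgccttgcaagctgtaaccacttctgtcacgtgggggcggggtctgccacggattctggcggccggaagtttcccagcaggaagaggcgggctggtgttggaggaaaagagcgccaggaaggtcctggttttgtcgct
Cdc6: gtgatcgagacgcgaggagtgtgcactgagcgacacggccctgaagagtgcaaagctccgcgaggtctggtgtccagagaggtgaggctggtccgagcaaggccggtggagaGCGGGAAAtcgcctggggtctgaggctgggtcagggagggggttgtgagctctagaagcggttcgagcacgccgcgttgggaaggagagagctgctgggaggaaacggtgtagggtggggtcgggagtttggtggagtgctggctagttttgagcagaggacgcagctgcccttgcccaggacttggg
Mcm5: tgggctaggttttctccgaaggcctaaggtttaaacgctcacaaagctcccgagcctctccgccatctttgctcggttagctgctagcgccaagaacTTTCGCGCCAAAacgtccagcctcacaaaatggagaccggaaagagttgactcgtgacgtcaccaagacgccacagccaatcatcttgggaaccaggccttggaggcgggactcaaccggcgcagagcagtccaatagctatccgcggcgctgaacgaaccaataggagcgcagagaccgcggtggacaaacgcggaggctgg

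3 mitosis windows are shown, those of Bub1b, the mitosis gene of lowest p, and of Cenpa and Aurka, the next by p among the windows read that hold both CHR and CCAAT letters, which are in capitals (ATTGG is CCAAT on the other strand). Aurkb, Ccna2 and Tpx2 lie between Cenpa and Aurka by p and have no window here. They were chosen by p and by these letters, so both are fixed by the choice. Bub1b lies at chr2:118597961-118598260 (plus strand), Cenpa at chr5:30666636-30666935 (plus strand) and Aurka at chr2:172370521-172370820 (minus strand). The CHR letters nearest the start begin at base 41 after it in Bub1b, at base 17 in Cenpa and at base 33 in Aurka, and the CCAAT letters nearest to them begin 113, 86 and 19 bases before the start. Bub1b also has CHR letters 188 bases before its start. For Bub1b, Cenpa and Aurka the positions are counted from a start that is not the outermost one of the gene. The outermost starts of Bub1b (chr2:118598202) and Cenpa (chr5:30666877) lie inside their windows, upstream of the start used. That of Aurka lies upstream of its whole window.
Bub1b: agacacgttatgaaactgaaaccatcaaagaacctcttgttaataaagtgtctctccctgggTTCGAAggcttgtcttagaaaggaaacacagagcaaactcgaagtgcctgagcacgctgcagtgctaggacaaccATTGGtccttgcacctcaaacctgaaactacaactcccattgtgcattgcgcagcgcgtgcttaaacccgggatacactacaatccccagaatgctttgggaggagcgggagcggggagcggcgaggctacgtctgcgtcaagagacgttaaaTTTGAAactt
Cenpa: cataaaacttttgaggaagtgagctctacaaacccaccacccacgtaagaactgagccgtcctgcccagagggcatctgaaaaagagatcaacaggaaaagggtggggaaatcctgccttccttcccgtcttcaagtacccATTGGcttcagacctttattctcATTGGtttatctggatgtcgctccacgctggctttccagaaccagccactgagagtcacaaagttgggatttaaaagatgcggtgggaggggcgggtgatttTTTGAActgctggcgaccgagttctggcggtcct
Aurka: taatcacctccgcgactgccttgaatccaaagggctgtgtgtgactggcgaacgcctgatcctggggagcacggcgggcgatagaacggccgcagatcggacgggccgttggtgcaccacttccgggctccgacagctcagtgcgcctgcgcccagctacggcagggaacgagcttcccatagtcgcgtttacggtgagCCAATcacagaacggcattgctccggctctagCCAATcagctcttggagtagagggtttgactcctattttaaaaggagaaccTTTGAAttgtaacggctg

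Genes grouped by these letters had median differences near 0. The median difference was -0.05 over the 16 measured mitosis genes with both CHR and CCAAT letters in their windows and -0.01 over the 4 without both. It was 0.06 over the 6 measured replication genes with E2F letters and 0.01 over the 7 without. Over all other genes on the arrays the median was 0.01 for 789 genes with CHR and CCAAT letters and -0.01 for 395 with E2F letters. At an unadjusted limma p under 0.05, 18 of the 789 were higher and 22 lower, and 8 of the 395 were higher and 11 lower, against 256 higher and 214 lower of all 9887 genes with a window. Groups that did not overlap were found for 33 of the 789 upward and 48 downward, for 17 of the 395 upward and 23 downward, and for 532 of the 9887 upward and 456 downward.

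No other gene of the same pathways passed the test. A further 6 lists, 147 genes in all, were set beside the members, and 131 of them were measured. None passed limma over all probe sets (lowest adjusted p = 0.916), and at an unadjusted p under 0.05 1 gene was higher and 4 were lower (2.70% and 2.34% of all genes were). That count of 5 was 2 without wild-type replicate 1 or 2, and 3 without wild-type replicate 3 or any one mutant array. Groups that did not overlap were found for 3 genes upward and 9 downward of the 131 (5.54% and 4.83% of all genes). The median difference was -0.04, with 51 genes higher and 80 lower. The gene that was higher was Cenpq, of the inner kinetochore, at 329.0, 193.7 and 321.7 in wild-type and 381.1, 410.8 and 506.1 in mutant pads, and the log2 difference was 0.62 (SE 0.24, limma adjusted p = 0.925). Nuf2, of the outer kinetochore, read 539.3, 360.6 and 516.5 in wild-type and 309.1, 335.6 and 307.0 in mutant pads, and the log2 difference was -0.53 (SE 0.19, limma adjusted p = 0.921). The 3 mutant values of both genes lay outside the wild-type range, in opposite directions.

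The lowest p of these lists was that of Mycn, a transcription factor of proliferating progenitors. Mycn read 520.4, 474.5 and 602.9 in wild-type and 286.3, 289.7 and 449.1 in mutant pads, and the log2 difference was -0.64 (SE 0.22, limma adjusted p = 0.916). In the same list of 18 measured genes of G1, E2F and Rb, the median was -0.10. There cyclin D1 (Ccnd1), which links growth signals to Rb, read 1259.6, 886.9 and 808.4 in wild-type and 743.0, 652.6 and 723.3 in mutant pads. The groups did not overlap for either gene, wild-type replicate 1 stood high for Ccnd1, and its difference was -0.45 (SE 0.20, limma adjusted p = 0.966). Cdk2 differed by -0.31 and its activating phosphatase Cdc25a by 0.26.

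Among 34 measured genes of origins and replication forks the median was -0.02. The fork protein Wdhd1 read 359.9, 424.5 and 401.2 in wild-type and 275.9, 288.6 and 336.9 in mutant pads, and the log2 difference was -0.38 (SE 0.16, limma adjusted p = 0.947). The groups did not overlap for Wdhd1, nor for the polymerase delta subunit Pold2 and the helicase cofactor Cdc45, both at -0.29, while the polymerase epsilon subunit Pole differed by 0.32 with overlap. Among 21 genes of mitotic entry and exit the median was -0.09. Cyclin F (Ccnf), part of a ubiquitin ligase, read 290.1, 349.6 and 325.5 in wild-type and 229.8, 227.0 and 274.4 in mutant pads, and the log2 difference was -0.38 (SE 0.16, limma adjusted p = 0.947). All mutant values of Ccnf lay below the wild-type range. The kinase Pbk differed by -0.25, the phosphatase Cdc25c by 0.25, with all mutant values above the wild-type range, and the checkpoint protein Bub3 by 0.18. The remaining lists had medians of -0.05 (13 genes of nucleotide supply and chromatin assembly), -0.03 (30 genes of spindle, kinetochore and cytokinesis) and 0.01 (15 genes of condensin, cohesin and mitotic chromatin). In them thymidine kinase Tk1 differed by -0.34, the chromatin remodeller Hells by -0.33, the kinesins Kif22 and Kif2c by -0.36 and -0.25 and the condensin subunit Smc4 by -0.24. Upward, the lamin Lmnb1 differed by 0.20 and the cohesin subunit Stag2 by 0.15. For each of these 7 genes the groups overlapped.

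Markers of the cell types a whole pad can hold were read beside these values. Summed over 10 markers each, neuron genes read 2095.1 to 2291.6 in wild-type and 2661.8 to 3068.6 in mutant pads, and facial mesenchyme genes 15864.0 to 16046.7 and 17274.7 to 18881.6. Neither pair of ranges overlapped. At an unadjusted limma p under 0.05 were 3 neuron genes upward and 1 downward, 1 mesenchyme gene upward, 2 erythroid genes downward, 1 muscle gene each way and 1 endothelial gene downward (2.70% of all genes upward and 2.34% downward). The median difference was 0.21 over the neuron list (6 of 10 higher) and 0.07 over the mesenchyme list (6 of 10 higher). Surface epithelium genes summed to 3243.7 to 5123.5 in wild-type and 3007.3 to 4512.3 in mutant pads, erythroid genes (9 of 10 measured) to 24480.2 to 28879.7 and 23148.3 to 26191.0, and endothelial genes to 1357.8 to 1513.9 and 1209.5 to 1518.0. The ranges also overlapped for macrophage genes, at 538.7 to 560.1 and 458.3 to 678.4, and for muscle genes, at 202.2 to 335.9 and 191.2 to 279.6. Above the highest bacterial control on all 6 arrays were 5 of the 10 neuron, 7 of the 9 erythroid, 5 of the 9 macrophage and 1 of the 8 muscle markers. The markers Snap25 (neuron) and Myf5, Myh3 and Tnnt1 (muscle) read at or under that control on all 6 arrays. Whether the makeup of the pads has a part in the values of the cell cycle genes was not tested.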

How the data were processed

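Total RNA of whole whisker pads, 3 wild-type and 3 homozygous Trps1 mutant embryos at E12.5, was hybridised to Affymetrix MOE430A arrays per the labels. The authors deposited 1 intensity per probe set and array on a linear scale, and no source used here gives the method that summarised probes. A second deposited table, from GeneSpring GX 10.0, lists 65 probe sets by linear fold (a ratio) and holds 0 of the 44 genes. The 64 control probe sets were left out, 16 was added and log2 taken. Genes were named by the platform annotation, updated to RefSeq (GRCm38.p6), from probe sets with 1 gene (20380, against 691 with several and 1555 not listed). Each gene stood by the probe set of highest mean.

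Groups and replicate numbers came from the titles. At most 0.358% of probe sets read the same on any pair of arrays. The genotypes were compared by limma 3.58.1 (R 4.3.3), without covariates, threshold 0.05, and the fit was checked on simulated arrays. The design text names separate embryos for each genotype and an unpaired test. Genes shown with each array's value had an unadjusted p under 0.05, groups that did not overlap, the 3 highest or lowest differences of their set, or probe sets of opposite sign; from the other lists, up to 4 of lowest p. Pcna, Mki67, Nek2 and Plk1 were given array values after these were seen. The members and lists were chosen with earlier results of these data known. Alternatives were other scalings, offsets, filters, priors, weights, probe set rules and tests, a replicate block, and arrays left out.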

Additional observations from a re-analysis of the deposited data

How the results depend on the processing

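No member passed the adjusted threshold in any of the 21 alternatives. The count of members at an unadjusted p under 0.05, 1 as reported, was 0 with equal array medians, without the dimmest probe sets (1 in 3), with the replicate number as a block, with the mean of a gene's probe sets and with the methods' t-test at 1.5-fold. It was 2 without both replicate 3 arrays, 3 with a trended prior (Mcm4, Bub1b and Cenpa, without Tyms) or array weights, 4 with the methods' t-test, 5 with a floor of 32, and 0 to 3 without single arrays. The count of other pathway genes, 5 as reported, was 3 with equal medians or with the replicate block, 2 with an offset of 1, 1 with the t-test at 1.5-fold and 2 to 3 without single arrays. It was 6 without the dimmest probe sets, with a trended prior or with array weights, and 7 without both replicate 3 arrays. The replication minus mitosis value, 0.24, was 0.05 with the mean of a gene's probe sets. It was 0.11 without probe sets whose names end in _s_at, _x_at or _a_at, a setting that kept 33 members. The median of the replication genes was 0.09 without both replicate 3 arrays and 0.02 to 0.08 without single arrays, and that of the mitosis genes -0.12 to -0.04. Fits with fewer arrays or probe sets test fewer of them, and for the other settings the cause was not tested. The 8 genes whose groups did not overlap kept their sign in all alternatives run on them (Tyms 0.10 to 0.49, Bub1b -0.55 to -0.24, Mcm4 0.12 to 0.37). For most settings this was fixed by the choice of these genes. Without overlap, arrays left out or weighted, offsets and a floor cannot turn the sign. Priors, the block and the t-tests use the same difference. Only other scalings and probe set rules could have turned it, so the kept sign is no support for a direction. With 3 arrays a group precision is limited throughout, and for Tyms also by the background. Deviations of same-numbered arrays correlated at 0.038, 0.069 and 0.136, not all above 0.1, so the numbers were not taken as pairs and the replicate block was not the main design.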
